A study of Mus musculus with 11 samples.

Results

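The 9 genes described here encode the first steps of T cell receptor signalling: 2 receptor chains (Cd3e, Cd247), 3 kinases (Lck, Zap70, Txk), 3 transmembrane adaptors (Lat, Trat1, Lax1) and 1 phosphatase (Ptpn22). They were chosen by symbol, and Trat1, Txk and Lax1 were chosen because they were higher in Srebf2-deleted Tregs of visceral adipose tissue (VAT). All 9 were among the 10992 genes of the deposited table and all 9 passed the filter on low values. RNA was sequenced from regulatory T cells (Tregs), suppressive CD4 T cells marked by the transcription factor Foxp3, sorted alive by CD3, CD4 and Foxp3 from male mice aged 25 weeks. The groups were VAT KO (Foxp3-YFPcre Srebf2-flox/flox, 3 libraries), VAT WT (Foxp3-YFPcre Srebf2-WT/WT, 3 libraries), spleen KO (2 libraries, replicates 2 and 3) and spleen WT (2 libraries, replicates 2 and 3). All groups carried the Foxp3-driven YFP-Cre, so that deletion of Srebf2, which encodes the sterol-sensing transcription factor SREBP2, was directed at cells that express Foxp3. Whether each library was a separate animal is not stated in the labels, and the p-values here reflect only library-to-library spread, which may be technical.

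When the T cell receptor binds its antigen, the kinase Lck phosphorylates paired tyrosines in the tails of the CD3 chains and of CD247, the zeta chain. Zap70 docks on these tyrosines and phosphorylates the membrane adaptor Lat, on which the enzymes of the next steps gather, among them PLC-gamma, which Tec family kinases such as Txk activate. Ptpn22 removes phosphate from Lck and Zap70, and Lax1 is a Lat-like adaptor that restrains antigen receptor signalling in mouse T and B cells. Tregs need signals from their receptor to keep their suppressive state, and VAT Tregs carry a restricted set of receptors.

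Values are RPKM (reads per length of gene and size of library), so levels may be set side by side between genes. The libraries' RPKM summed to between 185319 and 210778, and the read depth was unknown. Srebf2 itself was at 0.263 to 1.23 RPKM across VAT KO libraries and 15.6 to 30.5 across VAT WT libraries, and at 2.59 and 1.59 in spleen KO against 10.5 and 23.2 in spleen WT. The 6 VAT Treg markers (Pparg, Il1rl1, Gata3, Klrg1, Areg and Ccr2) summed to 1440 to 1620 RPKM in VAT KO, 1900 to 2110 in VAT WT, 69.9 and 95.5 in spleen KO, and 90.2 and 81.8 in spleen WT. The 2 spleen WT libraries were least alike, with a correlation across genes of 0.932, against 0.968 to 0.974 between libraries of the other groups. Differences between groups are given as differences in log2(RPKM + 1), which understate those of low genes, with the standard error (SE) from 1 limma model of all 4 groups. A gene was called where the p from limma, adjusted by Benjamini-Hochberg over the 10429 genes tested, was under 0.05.

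The members differed widely in level. Lck was the highest in every library, at 160 to 282 RPKM, followed by Cd3e at 141 to 215 RPKM. Txk was the lowest member in every library, at 0.822 to 12.2 RPKM, and Trat1 stood at 1.55 to 26.7 RPKM. With Lax1 at 6.93 to 72.7 RPKM, the 3 genes chosen for their difference in VAT had the widest range relative to their level, while Cd247 ranged between 30.5 and 43.6 RPKM.

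**Figure D1:**
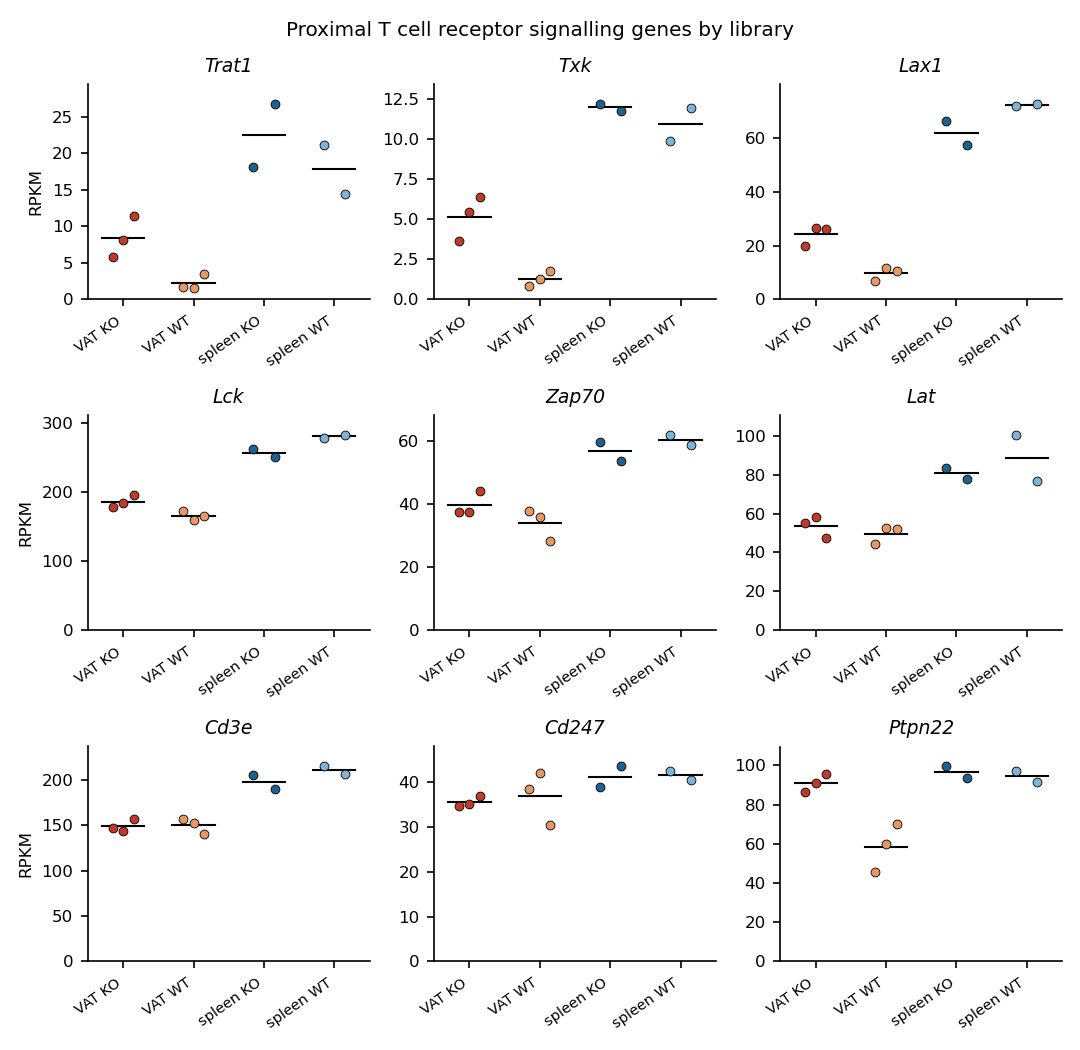
RPKM of the 9 genes in each library (points, 1 per library) with the group mean (line), for VAT KO, VAT WT, spleen KO and spleen WT; each panel has its own axis from 0. Trat1, Txk and Lax1 are lowest in VAT WT, intermediate in VAT KO and highest in both spleen groups, whereas Cd247 lies between 30.5 and 43.6 RPKM throughout.

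Trat1, Txk and Lax1 shared one order of levels: lowest in VAT WT, higher in VAT KO, highest in spleen. Trat1, an adaptor that associates with the receptor complex (also called TRIM), stood at 5.78, 8.17 and 11.4 RPKM in VAT KO replicates 1 to 3, against 1.69, 1.55 and 3.45 in VAT WT. Its spleen libraries held 18.1 and 26.7 RPKM in KO, against 21.2 and 14.4 in WT. Every VAT KO library lay above every VAT WT library and below every spleen library, while the spleen genotypes overlapped.

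Txk, a Tec family kinase also called Rlk, stood at 3.61, 5.42 and 6.40 RPKM across VAT KO, against 0.822, 1.26 and 1.75 across VAT WT. The spleen values were 12.2 and 11.7 RPKM in KO and 9.89 and 11.9 in WT. Here too the VAT KO libraries fell between the VAT WT and the spleen libraries without overlap, and the spleen genotypes overlapped. Tec, a kinase of the same family that lies outside the members, averaged 7.38 ± 1.39 RPKM for VAT KO and 6.73 ± 1.25 for VAT WT (SD, n = 3 each).

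Lax1 stood at 19.9, 26.5 and 26.2 RPKM across VAT KO, against 6.93, 11.8 and 10.6 across VAT WT. Its spleen values were 66.4 and 57.6 RPKM in KO, against 71.9 and 72.7 in WT. All 4 groups were separate for this gene, and in spleen the KO libraries were the lower ones.

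These 3 differences between VAT KO and VAT WT chose the genes, so they are a description. The log2 difference was 1.55 ± 0.28 (SE) for Trat1, 1.42 ± 0.22 for Txk and 1.24 ± 0.19 for Lax1. Mean RPKM was 3.79-fold higher in VAT KO for Trat1 (8.44 ± 2.81 in VAT KO, 2.23 ± 1.06 in VAT WT), 4.02-fold for Txk (5.14 ± 1.42 in VAT KO, 1.28 ± 0.464 in VAT WT) and 2.47-fold for Lax1 (24.2 ± 3.69 in VAT KO, 9.78 ± 2.54 in VAT WT; SD, n = 3 each). Mean levels in VAT KO were at 37.6% of spleen KO for Trat1, 43.0% for Txk and 39.0% for Lax1, where mean levels in VAT WT were at 12.5%, 11.7% and 13.5% of spleen WT. In bulk libraries, fewer cells with a transcript and less of it per cell cannot be told apart.

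The starts of Trat1, Txk and Lax1, the genes chosen for their difference in VAT, are shown as a description. The windows run from 250 bases before to 50 after an annotated start (RefSeq, GRCm38.p6, which is mm10; Txk and Lax1 have a further annotated start each, not printed). In mm10 the gene of Trat1 spans chromosome 16 between 48730774 and 48772021, that of Txk chromosome 5 between 72695978 and 72752777, and that of Lax1 chromosome 1 between 133679091 and 133690108. The windows are Trat1 at chr16:48772013-48772312, Txk at chr5:72752728-72753027 and Lax1 at chr1:133690059-133690358, all on the minus strand and written 5′ to 3′ along the gene. Capitals mark GGAAG, the core bound by ETS factors, and CTTTGA, the core bound by Tcf7 and Lef1, on either strand.
Trat1: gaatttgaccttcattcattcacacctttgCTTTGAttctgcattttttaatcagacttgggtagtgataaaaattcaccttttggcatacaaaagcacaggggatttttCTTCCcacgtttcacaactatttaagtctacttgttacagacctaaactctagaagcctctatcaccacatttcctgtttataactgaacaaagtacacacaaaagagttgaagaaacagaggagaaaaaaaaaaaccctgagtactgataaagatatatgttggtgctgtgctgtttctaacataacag
Txk: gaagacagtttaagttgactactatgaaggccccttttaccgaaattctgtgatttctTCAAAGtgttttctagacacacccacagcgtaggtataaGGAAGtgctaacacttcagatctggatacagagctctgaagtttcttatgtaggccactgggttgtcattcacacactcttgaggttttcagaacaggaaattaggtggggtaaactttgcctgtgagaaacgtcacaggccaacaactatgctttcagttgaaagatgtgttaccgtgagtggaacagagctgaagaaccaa
Lax1: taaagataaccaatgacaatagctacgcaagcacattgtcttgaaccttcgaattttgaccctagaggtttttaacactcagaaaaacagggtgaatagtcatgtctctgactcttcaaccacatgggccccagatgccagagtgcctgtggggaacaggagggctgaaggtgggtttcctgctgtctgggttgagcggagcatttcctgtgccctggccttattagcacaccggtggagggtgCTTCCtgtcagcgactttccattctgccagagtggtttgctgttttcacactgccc
All 9 members were found among the RefSeq promoters, with 15 windows. GGAAG was in 14 of these 15 windows and in 71.4% of all 32851 promoter windows. CTTTGA was in 4 of 15, those of Trat1, Txk, Zap70 and Cd247, and in 5257 of the 32851. TCACNCCAC, a form of the sterol element bound by SREBP factors, was in 0 of 15 and in 1.24% of all windows. Both strands were searched. The 2 motifs that were found did not overlap each other in the printed windows, and a match is a description of letters only.

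The other kinases and Lat differed little between VAT genotypes. Lck stood at 178, 184 and 195 RPKM across VAT KO, against 173, 160 and 165 across VAT WT. The groups did not overlap, and the log2 difference was 0.16 ± 0.10. Zap70 stood at 37.7, 37.6 and 44.4 RPKM across VAT KO, against 37.8, 36.1 and 28.4 across VAT WT, with overlapping groups and a log2 difference of 0.23 ± 0.14 (0.103 without VAT WT replicate 3 and 0.149 without VAT KO replicate 3). Lat stood at 55.1, 58.3 and 47.4 RPKM across VAT KO, against 44.2, 52.4 and 52.0 across VAT WT, again overlapping, with a log2 difference of 0.11 ± 0.14 (0.033 without VAT WT replicate 1, 0.049 without VAT KO replicate 2 and 0.195 without VAT KO replicate 3).

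The receptor chains overlapped between VAT genotypes. Cd3e, the epsilon chain, stood at 147, 144 and 157 RPKM across VAT KO, against 156, 152 and 141 across VAT WT, a log2 difference of -0.002 ± 0.11 with an interval (95%) of -0.23 to 0.23. Cd247 stood at 34.6, 35.2 and 37.0 RPKM across VAT KO, against 38.4, 42.0 and 30.5 across VAT WT, a log2 difference of -0.04 ± 0.14 with an interval of -0.35 to 0.26. Of the 5329 exonic bases of Cd247, 3007 are also exonic in Pou2f1 on the opposite strand, and the library kit does not mark strand, so that reads of both genes may be mixed in the value of Cd247.

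Ptpn22 was the only further member with a wide gap in VAT. It stood at 86.3, 90.8 and 95.3 RPKM across VAT KO, against 45.5, 60.1 and 69.8 across VAT WT. The groups did not overlap, mean RPKM was 1.55-fold higher in VAT KO (90.8 ± 4.51 in VAT KO, 58.5 ± 12.2 in VAT WT; SD, n = 3 each), and the log2 difference was 0.65 ± 0.15. The VAT KO libraries lay close to the spleen libraries, with 99.6 and 93.4 RPKM for spleen KO and 97.3 and 91.5 for spleen WT.

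Over the members, 5 of 9 had every VAT KO library above every VAT WT library (Trat1, Txk, Lax1, Lck and Ptpn22), where 8.97% of all tested genes did. This count includes the 3 genes chosen for the difference, and 2 of the 6 others were separate in this way, Lck and Ptpn22. Limma called 0 of these 6, where it called 0.307% of all genes as higher. Nothing is read from these counts, since this comparison chose the genes.

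**Figure D2:**
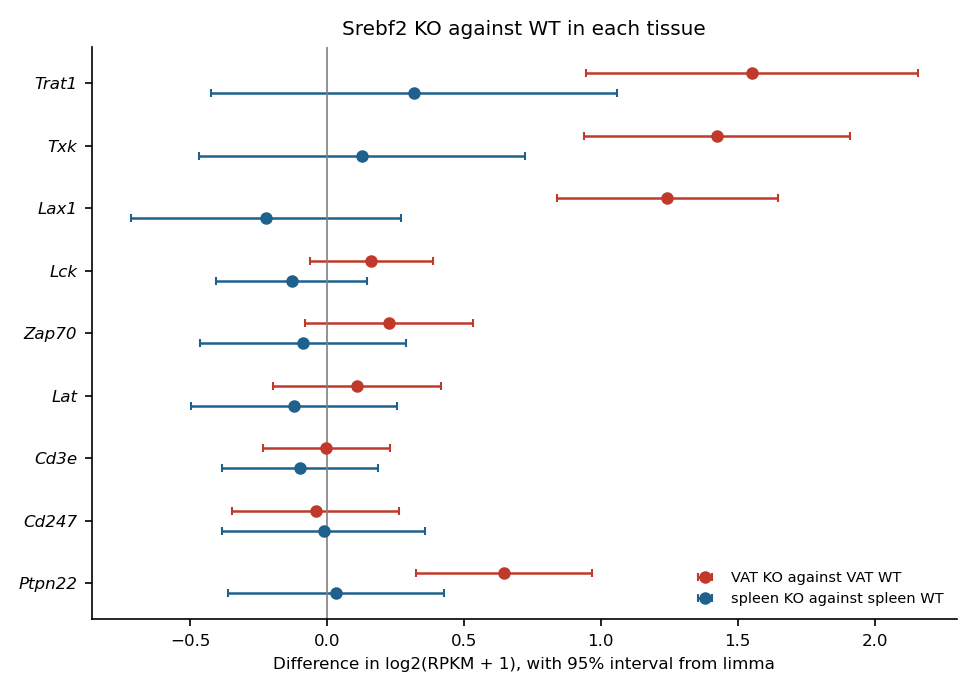
Difference in log2(RPKM + 1) of Srebf2 KO against WT for the 9 genes in VAT (red) and in spleen (blue); points are limma estimates and bars are 95% intervals. The VAT points of Trat1 (1.55), Txk (1.42), Lax1 (1.24) and Ptpn22 (0.65) lie to the right of 0, and all 9 spleen intervals include 0.

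The spleen differences rest on spleen libraries, which did not choose the genes, while their SEs and p-values also draw on the spread among VAT libraries through the shared model. Limma called 0 of 9 members there, and 0 of 9 had an unadjusted p under 0.05. Over all 10429 genes it called 0.0%, with 8.37% at an unadjusted p under 0.05. Trat1 differed by 0.32 ± 0.34 log2 units between spleen KO and spleen WT, with an interval of -0.42 to 1.06 (adjusted p = 0.770). Without 1 spleen library it lay at 0.049 (without KO replicate 3), 0.056 (without WT replicate 3), 0.578 (without WT replicate 2) or 0.585 (without KO replicate 2). The difference was 0.13 ± 0.27 for Txk, with an interval of -0.47 to 0.72 (adjusted p = 0.886), and -0.22 ± 0.23 for Lax1, with an interval of -0.72 to 0.27 (adjusted p = 0.762). For Txk it was 0.003 without spleen WT replicate 2 and 0.25 without spleen WT replicate 3, and for Lax1 -0.121 without spleen KO replicate 3. The difference in VAT exceeded that in spleen by 1.24 ± 0.44 for Trat1 and 1.30 ± 0.35 for Txk, a gap that was not tested because the VAT libraries chose these genes.

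The 6 other members spanned -0.13 to 0.03 in spleen. Lck stood at 262 and 251 RPKM in spleen KO, against 278 and 282 in spleen WT (-0.13 ± 0.13, adjusted p = 0.753). Cd3e stood at 205 and 190 RPKM in spleen KO, against 215 and 207 in spleen WT (-0.10 ± 0.13, adjusted p = 0.817). Zap70 stood at 60.0 and 53.8 RPKM in spleen KO, against 62.1 and 58.9 in spleen WT (-0.09 ± 0.17, adjusted p = 0.875). Lax1, Lck and Cd3e, 3 of 9 members, had both KO libraries under both WT libraries, where 17.5% of all tested genes did. After quantile normalization the difference of Lck was 0.019.

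Lat stood at 83.6 and 77.9 RPKM in spleen KO, against 100.3 and 76.9 in spleen WT, where replicate 2 is the high library. Its difference was -0.12 ± 0.17 (adjusted p = 0.826), and 0.07 without spleen WT replicate 2, which leaves 1 spleen WT library that is assumed to vary like the others. Cd247 stood at 38.8 and 43.6 RPKM in spleen KO, against 42.5 and 40.6 in spleen WT (-0.01 ± 0.17, adjusted p = 0.982). Ptpn22 differed by 0.03 ± 0.18 (adjusted p = 0.959).

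The comparison of VAT with spleen asked how far the pathway differed between the tissues. The tissue comparisons share their libraries with the genotype comparisons above. Every member had a lower mean RPKM in VAT than in spleen in both genotypes, by 1.06-fold for Ptpn22 in KO at the least and by 8.53-fold for Txk in WT at the most. The median log2 difference of all genes was under 0 too. It was -0.09 in KO, where Ptpn22 was also at -0.09, and -0.12 in WT, where Cd247 was at -0.18. A direction shared by the members is therefore in part that of the whole table. The log2 difference of Ptpn22 in KO turned to 0.002 with median ratio scaling and to 0.014 with the replicate number as a block. Trat1, Txk and Lax1 were chosen on the VAT libraries, so their tissue differences are given without a test. In KO they were -1.33 ± 0.31 for Trat1, -1.10 ± 0.25 for Txk and -1.33 ± 0.21 for Lax1. In WT they were -2.57 ± 0.31 for Trat1, -2.40 ± 0.25 for Txk and -2.79 ± 0.21 for Lax1.

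Of the 6 other members, 3 fell in VAT KO against spleen KO: Lck, Lat and Cd3e, where limma called 6.94% of all genes as lower. Lck differed by -0.46 ± 0.12 (adjusted p = 0.0172), Lat by -0.59 ± 0.16 (adjusted p = 0.0254) and Cd3e by -0.40 ± 0.12 (adjusted p = 0.0426). For each of these genes all 3 VAT KO libraries lay under both spleen KO libraries, as for Zap70 and Cd247, where 30.4% of all tested genes did. Zap70 stood at -0.50 ± 0.16 (adjusted p = 0.0507), Cd247 at -0.20 ± 0.16 (adjusted p = 0.436) and Ptpn22 at -0.09 ± 0.17 with an interval of -0.45 to 0.27 (adjusted p = 0.789). With RPKM scaled by median ratios 0 of the 6 were called, and likewise without VAT KO replicate 1, spleen KO replicate 2 or spleen KO replicate 3, while 1 was called without VAT KO replicate 2 or 3.

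In WT, 5 of the 6 fell in VAT against spleen, where limma called 15.4% of all genes as lower. Lck differed by -0.75 ± 0.12 (adjusted p = 0.000488), Zap70 by -0.82 ± 0.16 (adjusted p = 0.00242) and Lat by -0.82 ± 0.16 (adjusted p = 0.00244). Ptpn22 differed by -0.70 ± 0.17 (adjusted p = 0.00836) and Cd3e by -0.49 ± 0.12 (adjusted p = 0.00976). In each of these 5 genes all 3 VAT WT libraries lay under both spleen WT libraries, where 31.0% of all tested genes did. Cd247 stood at -0.18 ± 0.16 (adjusted p = 0.436). The median of all genes was -0.12 in this comparison and 0.01 after scaling by median ratios, and under that scaling Cd3e was not called (-0.33, adjusted p = 0.0609).

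**Figure D3:**
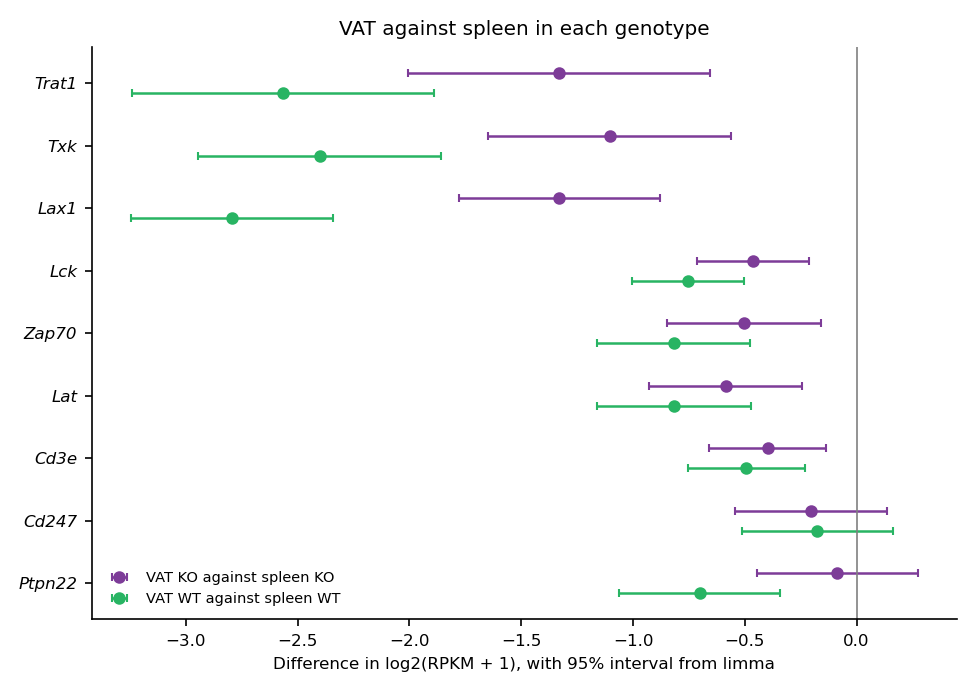
Difference in log2(RPKM + 1) of VAT against spleen for the 9 genes in Srebf2 KO (purple) and WT (green) Tregs; points are limma estimates and bars are 95% intervals. All points lie under 0, and those of Trat1, Txk and Lax1 lie farthest from it in WT, between -2.79 and -2.40.

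The genes with the pattern most like Trat1, Txk and Lax1 were looked for among 6628 genes, those averaging 5 RPKM or more, by the root mean square difference of log2(RPKM + 1) profiles over the 10 libraries, each centred on its own mean. For Trat1 they were Txk (0.28 log2 units), Slamf6 (0.31) and Ms4a4b (0.33), for Txk Lrrc32 (0.20), Ms4a6b (0.24) and Lax1 (0.24), and for Lax1 Slfn1 (0.18), H2-Ob (0.23) and Ms4a6b (0.24). Slfn1, a Schlafen family gene of resting T cells, averaged 50.3 RPKM in VAT KO, 23.3 in VAT WT, 159 in spleen KO and 153 in spleen WT. Lrrc32, which encodes the Treg surface protein GARP, averaged 22.6 RPKM in VAT KO, 6.91 in VAT WT, 41.7 in spleen KO and 38.0 in spleen WT. The differences between profiles of the members were 0.24 for Txk and Lax1, 0.28 for Trat1 and Txk and 0.39 for Trat1 and Lax1, against 0.75 to 1.13 between any of these 3 and the 6 other members. The 10 libraries include the VAT libraries on which these 3 genes were chosen for a difference in the same direction. Their closeness therefore follows in part from the choice, and nothing is read from it.

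The rest of the pathway was taken from 5 lists of 87 genes in all, of which 80 were in the table and 79 were tested. In VAT, 1 of the 79 rose in KO and 0 fell (background 0.307% and 0.115%). An unadjusted p under 0.05 was found for 11 of the 79, where 7.35% of all genes had one. The lists were chosen with earlier results of these data known, so nothing is read from this count. The gene that rose was Evl, a protein of the Ena/VASP family that extends actin filaments and binds the adaptor Fyb. Evl stood at 20.4, 29.1 and 32.2 RPKM across VAT KO, against 13.8, 14.5 and 11.7 across VAT WT (0.96 ± 0.18, adjusted p = 0.0422). The groups did not overlap, but the call was lost without any one VAT WT library, VAT KO replicate 2 or 3, or either spleen KO library (range of the difference 0.80 to 1.15). Evl averaged 82.5 ± 10.3 RPKM in spleen KO and 76.3 ± 9.63 in spleen WT (SD, n = 2 each).

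By list, the median log2 difference between VAT KO and VAT WT was 0.07 for 7 receptor chains, coreceptors and other surface receptors. These 7 were Cd3d, Cd3g, Cd4, Cd28, Cd2, Cd5 and Cd6. The median was 0.09 for 9 kinases, 0.03 for 21 adaptors and scaffolds, and 0.16 for 21 effector enzymes and calcium entry genes. It was 0.10 for 21 phosphatases and inhibitors, against 0.02 over all genes. Over the 79 genes 53 lay above 0 and 26 below, with a median of 0.083. The split was the same in spleen KO against spleen WT, 53 above and 26 below, with a median of 0.109 against -0.028 over all genes. Evl was the 1 call among 21 adaptors. The other lists had 0 calls, with 1 of the 7 surface receptors (Cd28), 1 kinase, 0 effectors and 4 phosphatases or inhibitors at an unadjusted p under 0.05. In spleen KO against spleen WT 0 of the 79 were called and 6 had an unadjusted p under 0.05, where 8.37% of all genes did.

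The spleen genes with the smallest p, none of which passed, were Ptprj, Tnfrsf4, Cblb and Itpkb. Ptprj, a receptor-type tyrosine phosphatase, stood at 0.165 and 0.740 RPKM in spleen KO, against 2.89 and 2.77 in spleen WT (-1.43 ± 0.31, adjusted p = 0.306). With a pseudocount of 0.1 or 5 its difference was -2.64 or -0.525. Tnfrsf4, the costimulatory receptor OX40 of the list of induced genes, differed by -0.38 ± 0.15 (adjusted p = 0.594), with -0.192 without spleen WT replicate 2. Cblb, a ubiquitin ligase that damps receptor signalling, differed by 0.70 ± 0.27 (adjusted p = 0.594), with 0.21 without spleen WT replicate 2 and 1.19 without spleen WT replicate 3. Itpkb, a kinase of inositol trisphosphate, differed by 0.52 ± 0.22 (adjusted p = 0.594), with 0.298 without spleen WT replicate 2. Without spleen WT replicate 3, which leaves 1 spleen WT library, 20 pathway genes were called, Ptprj and Cblb among them, and Tnfrsf4 passed too. That fit called 1395 genes in all, or 13.4% of those tested.

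**Figure D4:**
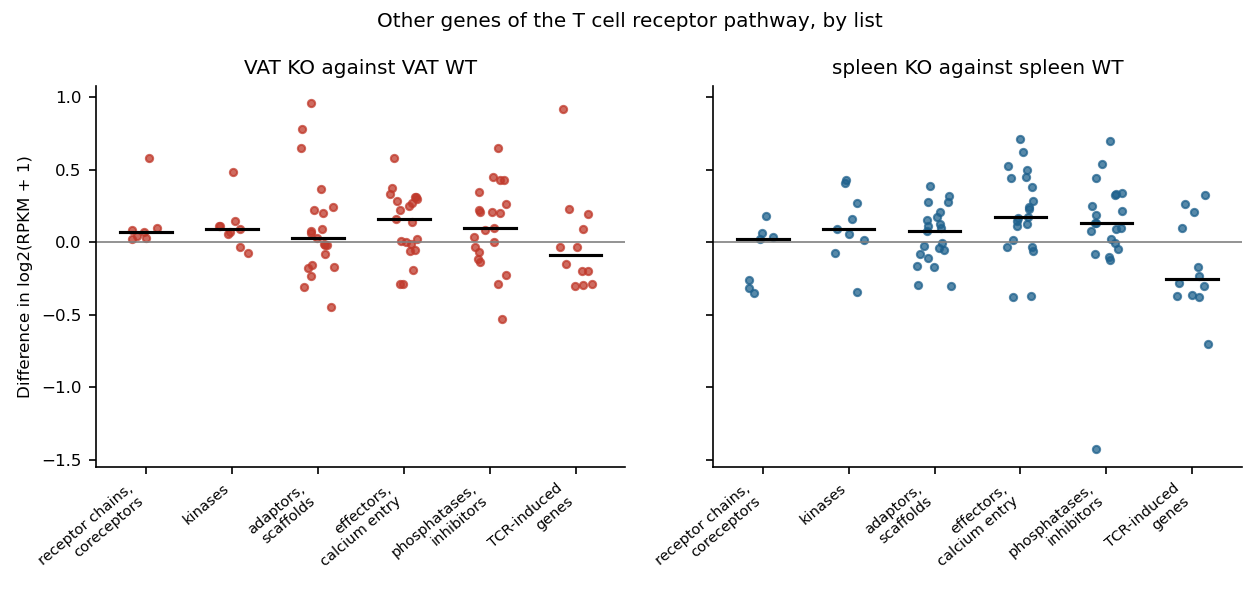
Difference in log2(RPKM + 1) of Srebf2 KO against WT in VAT (left) and in spleen (right) for the other genes of the pathway, 1 point per gene, grouped by list, with the list median as a line. Points scatter on both sides of 0 in each list but that of receptor chains and other surface receptors in VAT. The list medians lie between -0.26 and 0.17, and Evl is the highest VAT point at 0.96.

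Between the tissues the pathway lists moved in both directions. In KO, 8 of 79 were higher and 9 lower in VAT than in spleen (background 7.65% and 6.94%), and in WT 12 were higher and 15 lower (background 10.7% and 15.4%). Nck2, an SH2 and SH3 adaptor that links receptors to actin, averaged 46.9 ± 6.11 RPKM in VAT KO and 13.7 ± 2.24 in spleen KO (1.71 ± 0.16, adjusted p = 1.59e-05), and 64.2 ± 5.1 in VAT WT against 11.0 ± 0.993 in spleen WT (2.44 ± 0.16, adjusted p = 4.36e-07). Ubash3b, the phosphatase Sts-1 that acts on Zap70, differed by 1.61 ± 0.22 in KO (adjusted p = 0.000299) and 2.10 ± 0.22 in WT (adjusted p = 2.18e-05). Ptpn6, the phosphatase SHP-1, fell by 1.39 ± 0.20 in KO (adjusted p = 0.00043) and by 1.72 ± 0.20 in WT (adjusted p = 4.96e-05).

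Malt1, a protease and scaffold on the path to NF-kappaB, was higher in VAT by 0.87 ± 0.18 in KO (adjusted p = 0.00536) and 1.04 ± 0.18 in WT (adjusted p = 0.00108). Evl differed by -1.58 ± 0.20 in KO (adjusted p = 0.000138) and -2.43 ± 0.20 in WT (adjusted p = 2.11e-06). Stim1, the sensor of calcium stores, rose in VAT in WT (0.89 ± 0.18, adjusted p = 0.00332), and Prkcq, the kinase PKC-theta, fell there (-0.89 ± 0.20, adjusted p = 0.00687). Stim1 and Prkcq went the same way in KO without a call (0.47 ± 0.18, adjusted p = 0.106, and -0.46 ± 0.20, adjusted p = 0.157). Vav1, a guanine nucleotide exchange factor, was lower in VAT in WT (-0.49 ± 0.16, adjusted p = 0.0403) as well as in KO. In KO, Csk, which phosphorylates the inhibitory tyrosine of Lck, differed by -0.58 ± 0.16 (adjusted p = 0.0296). Tec differed there by 0.78 ± 0.23 (adjusted p = 0.0363) and Vav1 by -0.52 ± 0.16 (adjusted p = 0.0458). The calls of Csk, Tec and Vav1 were lost without either spleen KO library, without VAT KO replicate 1 or 3 and with the replicate number as a block. Those of Csk and Vav1 were also lost without VAT KO replicate 2, with quantile normalization and with median ratio scaling, and those of Tec and Vav1 without VAT WT replicate 1. Vav1 was also not called without VAT WT replicate 2, so that 11 of 19 alternatives called Csk, 13 Tec and 9 Vav1 (difference over all alternatives -0.67 to -0.49 for Csk, 0.48 to 0.92 for Tec and -0.65 to -0.39 for Vav1).

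Of the further CD3 chains, Cd3d fell in VAT in both genotypes and Cd3g in WT. Cd3d, the delta chain, differed by -0.68 ± 0.21 in KO (adjusted p = 0.046) and by -1.02 ± 0.21 in WT (adjusted p = 0.00341). Without spleen WT replicate 2 the WT difference was -0.595, and the KO call was lost without any one of the VAT or spleen KO libraries, with a pseudocount of 0.1, with no filter, with median ratio scaling and with the replicate number as a block (-0.94 to -0.57 over all alternatives). Cd3g, the gamma chain, differed by -0.67 ± 0.18 in WT (adjusted p = 0.0161) but by -0.32 without spleen WT replicate 2 (adjusted p = 0.117). It was also not called without VAT WT replicate 3 (adjusted p = 0.0586), with median ratio scaling (adjusted p = 0.0572) or in the 2 groups alone (adjusted p = 0.076). Spleen WT replicate 2 held 384 RPKM of Cd3d and 299 of Cd3g, against 211 and 183 in replicate 3.

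Genes that receptor signals induce were measured beside the members. In VAT KO against VAT WT 0 of 12 were called, with 2 at an unadjusted p under 0.05 (background 7.35%), Cd69 (-0.30 ± 0.12, adjusted p = 0.558) and Nr4a2 (0.92 ± 0.32, adjusted p = 0.444), both named after their values were seen, and the median was -0.09. In spleen 0 of 12 were called, with 1 (Tnfrsf4) at an unadjusted p under 0.05 (background 8.37%), and the median was -0.26. Between the tissues 8 of 12 rose in VAT KO against spleen KO and 0 fell (background 7.65% and 6.94%), and 7 rose and 2 fell in VAT WT against spleen WT (background 10.7% and 15.4%). The 2 that fell were Egr2 (-1.72 ± 0.50, adjusted p = 0.0248) and Tnfrsf9 (-0.80 ± 0.17, adjusted p = 0.00434). Egr3 and Myc were not called between the tissues in either genotype.

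Nr4a1, a nuclear receptor and early response gene often used as a gauge of receptor signals, stood at 643, 591 and 586 RPKM in VAT KO and at 23.4 and 31.6 in spleen KO (4.43 ± 0.24, adjusted p = 7.32e-08). In WT it stood at 767, 572 and 762 RPKM in VAT and at 15.1 and 30.3 in spleen (4.95 ± 0.24, adjusted p = 2.19e-08). Cd69, an early activation marker that also retains cells in tissue, stood at 265, 264 and 256 RPKM in VAT KO and at 66.4 and 57.8 in spleen KO (2.06 ± 0.13, adjusted p = 3.69e-07). Its WT values were 345, 282 and 340 RPKM in VAT and 75.3 and 70.5 in spleen (2.12 ± 0.13, adjusted p = 2.26e-07). Nr4a1 and Cd69 were higher in VAT, where the mean level of each member was lower. Several of these 12 genes, Nr4a1 among them, are immediate early genes that other stimuli also induce.

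**Figure D5:**
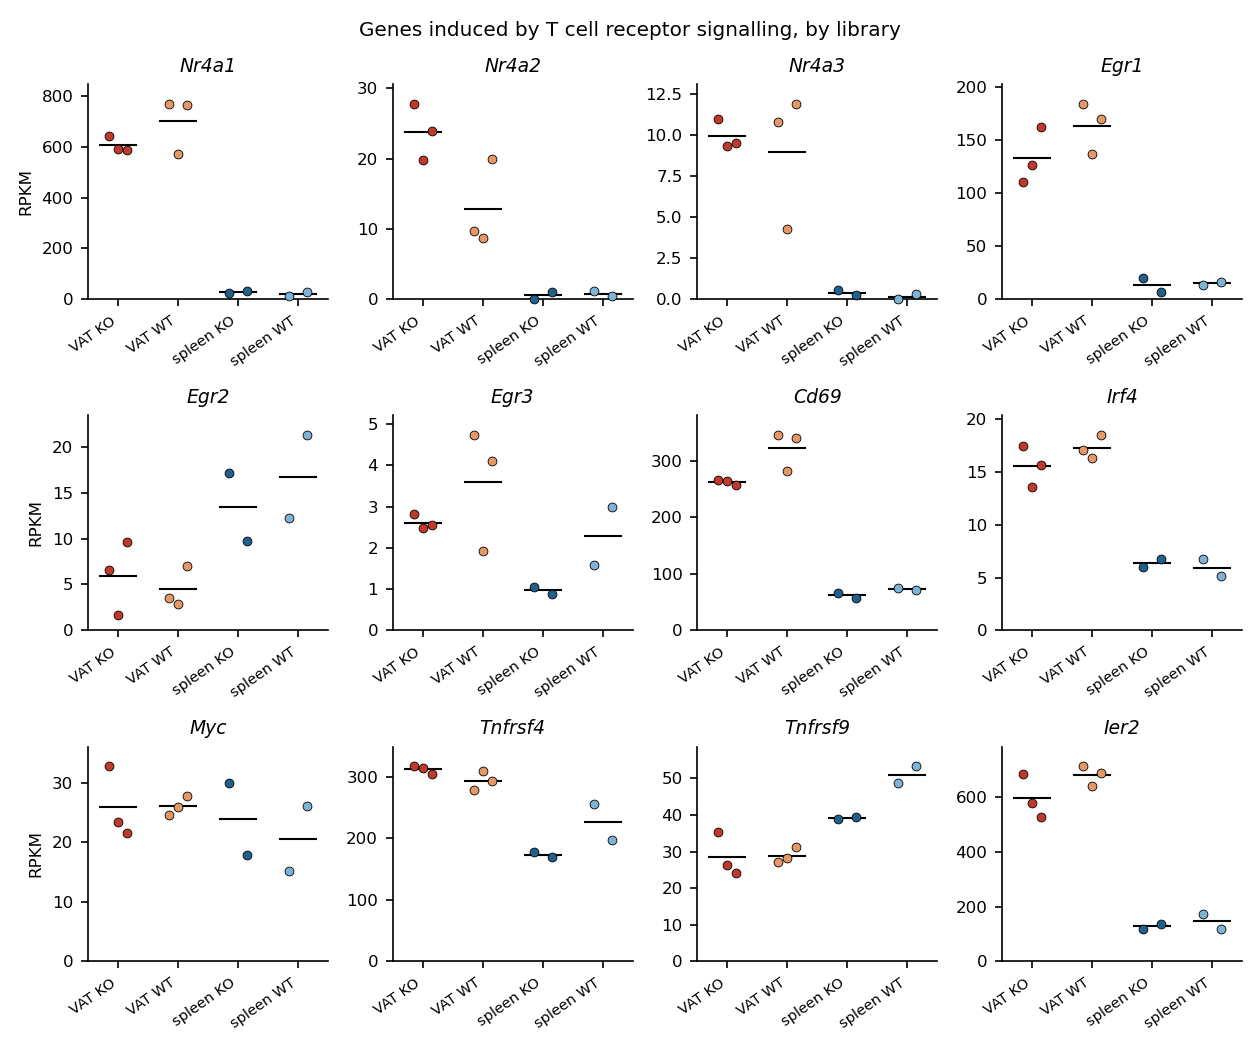
RPKM of 12 genes induced by receptor signals in each library (points) with the group mean (line), for VAT KO, VAT WT, spleen KO and spleen WT; each panel has its own axis from 0. Nr4a1 lies at 572 to 767 RPKM in VAT and at 15.1 to 31.6 RPKM in spleen, while Egr2 and Tnfrsf9 lie lower in VAT.

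Markers of other cells were measured beside the VAT differences. Of 10 myeloid markers 5 were in the table, and they summed to 21.8, 47.0 and 46.8 RPKM across VAT KO, against 15.4, 17.0 and 13.7 across VAT WT. Ctss made up most of these sums, with 19.8 to 44.9 RPKM for VAT KO and 11.8 to 13.9 for VAT WT. In spleen the sums were higher, at 184 and 188 RPKM in KO and 242 and 181 in WT, again mostly Ctss (176 to 235 RPKM). Csf1r, the receptor that defines macrophages, had 0.117 to 0.144 RPKM for VAT KO and 0.034 to 0.087 for VAT WT. It was at most 0.828 RPKM in any library and did not pass the filter on low values. The remaining myeloid markers, Adgre1, Fcer1g and Csf2ra, overlapped between the VAT genotypes. Adgre1 stood at 0.03 to 0.366 RPKM across VAT KO, against 0.039 to 0.347 across VAT WT. Fcer1g stood at 0.16 to 3.95 RPKM across VAT KO, against 0.417 to 1.01 across VAT WT. For Csf2ra the ranges were 1.37 to 1.56 RPKM and 1.42 to 1.73. The part of these transcripts in the differences of Trat1, Txk, Lax1 and Ptpn22 was not tested, nor was that of the lower VAT Treg marker sums in VAT KO given above. B cells also use Lax1, and 6 of 9 B cell markers were in the table; they summed to 19.9 to 42.9 RPKM in VAT KO and 20.7 to 96.6 in VAT WT, and these ranges overlap. For the list of other T and NK lymphocytes 3 of 9 markers were in the table, with a sum of 104 to 129 RPKM for VAT KO and 74.7 to 191 for VAT WT, mostly Nkg7. Of 8 stromal and endothelial markers, Pecam1 and Vwf were in the table. They summed to 8.93 to 12.1 RPKM across VAT KO, against 4.80 to 7.63 across VAT WT. Nearly all of this was Pecam1, at 8.80 to 11.8 RPKM across VAT KO, against 4.39 to 7.37 across VAT WT. Vwf overlapped between the genotypes, at 0.05 to 0.339 RPKM across VAT KO, against 0.044 to 0.402 across VAT WT. Pecam1 was higher in spleen, at 34.9 and 19.3 RPKM for KO, against 15.9 and 31.4 for WT. The part of Pecam1 and Vwf in the VAT differences was not tested. Lipe alone was left of 5 adipocyte markers, with 2.54 to 2.96 RPKM for VAT KO and 1.63 to 2.75 for VAT WT.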

How the data were processed

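The labels' protocols name a Quick-RNA MicroPrep kit for RNA, SMART-seq v4 for cDNA and Nextera XT for libraries. STAR and the mm10 build are named in the submitters' processing notes; the sources used here do not give the counter, gene models or filter. The values the authors deposited are RPKM per gene and library, per the file headers. Of 11 labelled samples, 10 have a matching column. Spleen KO replicate 1 is labelled but no column carries its name, and it was not analysed here. A further column (1) is headed as spleen WT replicate 1, which no labelled sample is, and was left unused; whether these are the same library under different names cannot be told. RPKM are not counts and showed no step of 1 read, so depth and counting error are unknown.

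Values were analysed as log2(RPKM + 1) over 10429 genes with at least 1 RPKM in at least 2 samples, with limma 3.58.1 in R 4.3.3: 4 group means, no covariate, trend on, robust off, two-sided, 6 residual and 6.44 prior degrees of freedom. The fit was tested on simulated data. Named were the 9 members, pathway genes called between genotypes (otherwise the 4 of smallest p), and the 2 of smallest p per list between tissues. The members and lists were chosen with earlier results of these data known. Coordinates and exons are from GENCODE M21 (mm10), promoters from RefSeq GRCm38.p6. Tried as well were pseudocounts of 0.1 and 5, no filter on low values, a mean of at least 5 RPKM, quantile and median ratio scaling, the 2 compared groups alone, a replicate block, a robust spread and each library left out.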

Additional observations from a re-analysis of the deposited data

Results flagged for a closer look

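Lax1 and Lck were the members in which every KO library moved one way in VAT and the opposite way in spleen. Lax1 lay above all WT libraries in VAT KO and under all WT libraries in spleen KO, and its log2 difference between KO and WT was larger in VAT than in spleen by 1.465 ± 0.294 (SE). Lck did the same at a smaller size, with a gap between the tissues of 0.291 ± 0.164, but its spleen difference turned to 0.019 with quantile normalization. This gap was not tested, since Lax1 was chosen on the VAT libraries. Over all 10429 genes tested, 228, or 2.19%, showed such opposite and separate groups in the 2 tissues.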

How the results depend on the processing

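The differences of Trat1, Txk and Lax1 between VAT genotypes kept their direction in every alternative run, with 1.34 to 1.81 for Trat1, 1.27 to 1.62 for Txk and 1.04 to 1.38 for Lax1 over the fits without 1 library. As a description only, since these libraries chose the genes, the number of members called in VAT was 1 with a pseudocount of 5, 0 to 3 without 1 library and 3 with the replicate number as a block. Of pathway genes in VAT, 0 were called with a pseudocount of 5 or quantile normalization, and 0 to 1 without 1 library. In spleen 0 to 20 pathway genes (20 where 13.4% of all genes were called) and 0 to 2 induced genes were called without 1 library, where 0 members were called in each fit. Direction in spleen turned for Lck with quantile normalization (0.019), for Cd247 with quantile normalization (0.02), median ratio scaling (0.016), without spleen KO replicate 2 (0.069) or without spleen WT replicate 2 (0.02), for Lat without spleen WT replicate 2 (0.069), and for Ptpn22 without spleen KO replicate 2 (-0.015) or spleen WT replicate 3 (-0.012). Without 1 library the spleen difference ranged between -0.311 and 0.069 for Lat, -0.094 and 0.069 for Cd247, and -0.015 and 0.078 for Ptpn22. With the 2 compared groups alone, 3 of 6 members and 17 pathway genes were called between the tissues in WT, where 17.2% of all genes were. That fit had fewer samples. Between the tissues in KO, 0 of 6 members were called with median ratio scaling, 0 to 4 without 1 library, and 8 to 26 pathway genes without 1 library; Ptpn22 turned to 0.002 with median ratio scaling. Of all genes, limma called 0.192% between VAT genotypes with a pseudocount of 5, 0.422% with quantile normalization and 0.0192% to 0.375% without 1 VAT library. Between the tissues in KO it called 14.1% with median ratio scaling and 9.72% to 13.8% without 1 VAT library. These shares leave out the fits without 1 spleen library, which the ranges of members and pathway genes above include. The ends of those ranges therefore cannot be set against these shares. The cause of the moves between settings was not tested.

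Whether replicate numbers pair the libraries could not be decided. Correlations of deviations from group means ran from -0.147 to 0.184 between same-numbered libraries and from -0.184 to 0.22 between differently numbered ones. With 2 libraries in a spleen group the deviations mirror each other, so these correlations cannot settle it. With the replicate number as a block, 0 pathway genes were called in VAT, where 0.374% of all genes were. Between the tissues in KO 0 of 6 members were called with the block, where 10.5% of all genes were, and Ptpn22 turned to 0.014. The unknown depth limits what can be said of Txk in VAT WT, at 0.822 to 1.75 RPKM.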
